A study of Mus musculus with 61 samples.

Results

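Liver RNA of B6 mice was set against that of NOD mice across all genes of the deposited table, in 15 of the 60 RNA sequencing libraries that had a column of counts. The comparison took the columns B6 1, 2, 3, 4, 6, 7 and 8 (n = 7) and all columns NOD 1 to 8 (n = 8). Differences are given throughout as B6 minus NOD. The study profiled 8 inbred strains, and the B6 and the NOD mice alike ate a diet rich in fat and sugar, given in the labels as 45% fat. The labels used here name neither an engineered allele nor a drug, and they give no sex, age or collection time for these libraries. RNA came from frozen, pulverised liver, so each library held every cell type of the piece. In such bulk samples, fewer cells of a type and less RNA per cell cannot be told apart.

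B6 is the strain whose genome serves as the mouse reference, and it is the usual control strain of mouse genetics. NOD mice develop autoimmune diabetes, in which T cells destroy the insulin-producing cells of the pancreas, and their strongest risk locus lies in the major histocompatibility complex (MHC). The liver is made mostly of hepatocytes, with resident macrophages (Kupffer cells), sinusoidal endothelium, stellate cells and passing lymphocytes among them, and it is a large responder to interferons.

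Depth was 19.98 to 38.25 M reads per B6 library and 22.97 to 34.28 M per NOD library, and levels are given in CPM, counts scaled to 1 M reads of a library. Log2 levels correlated at 0.956 to 0.986 among B6 libraries, at 0.934 to 0.985 among NOD libraries and at 0.922 to 0.959 between the strains, and all 15 libraries correlated best with one of their own strain. Xist, which coats the inactivated X chromosome, was at 830 to 1110 CPM in B6 1 to 4 and at 1060 to 1310 in NOD 1 to 4, but at no more than 7.34 CPM in B6 6 to 8 and 4.06 in NOD 5 to 8. The sample identifiers of B6 6 to 8 also stand apart from those of B6 1 to 4, so within B6 the Xist class and the identifier run cannot be told apart. NOD 1 carried skeletal muscle transcripts (Acta1 at 419 CPM, against at most 24.9 in NOD 2 to 8), NOD 1 and 2 stood apart in drug-metabolising genes, and B6 7 stood apart in clock genes. Values with and without these libraries are given where they matter. The labels do not state that each library is a separate animal, so p-values measure the spread between libraries. In the main fit of single genes, that spread was taken within each of the 8 strains, over all 60 libraries.

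Of 16165 genes tested, 3936 (24.3%) differed between B6 and NOD at an adjusted p under 0.05 (edgeR's quasi-likelihood test with Benjamini-Hochberg adjustment), and such genes are described as called. B6 was the higher strain for 2098 of them (13% of genes tested) and NOD for 1838 (11.4%). At least a 2-fold difference was found for 1558 called genes (9.64%), of which 995 (6.16%) were higher in B6 and 563 (3.48%) higher in NOD. For 1397 genes (8.64%) no library of one strain overlapped any of the other. The median log2 fold change over all tested genes was -0.02.

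The means of the other 6 strains place the difference. Among genes called higher in B6, B6 lay farther than NOD from the median of the other strains for 1418 (67.6%) and NOD lay farther for 680 (32.4%). Among genes called higher in NOD, B6 lay farther for 930 (50.6%) and NOD for 908 (49.4%). These shares describe where the levels lie and were not tested.

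**Figure D1:**
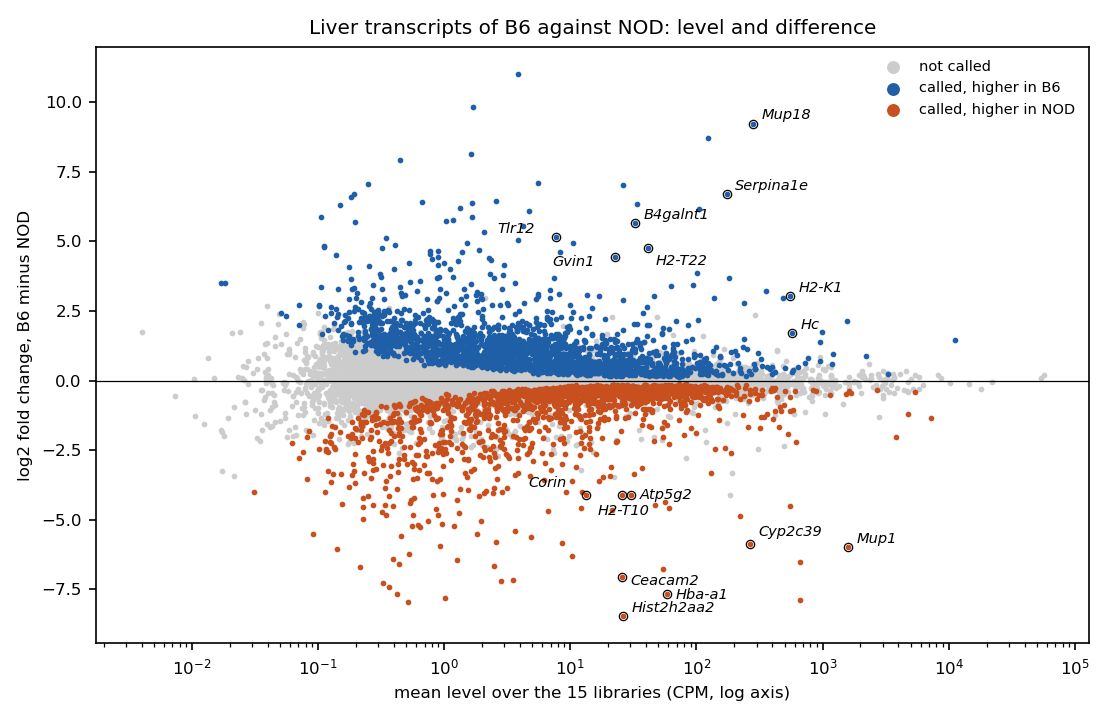
Each point is one of the 16165 genes tested, with its mean level over the 15 libraries in CPM (log axis) against its log2 fold change, B6 minus NOD. Blue points were called higher in B6 (2098) and orange points higher in NOD (1838). Named genes are described in the text.

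Interferon response genes were higher in B6. Interferons act through receptor-bound kinases and a transcription factor complex that holds Stat2 and Irf9 and binds an interferon-stimulated response element in the promoters of antiviral genes. Of 43 interferon response genes tested, 35 were higher in B6 and 0 higher in NOD (81.4%, beside 24.3% of all genes), with a median log2 fold change of 1.00 against -0.02 over all genes. The NOD count was 0 by DESeq2 and limma too, and 0 at an unadjusted p under 0.05. Of 19 gene models of interferon-inducible GTPases, which attack the vacuoles of intracellular pathogens, 12 were higher in B6 and 0 in NOD (63.2%), with a median of 1.19, and the NOD count was 0 by those other measures as well.

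RefSeq promoters of GRCm38.p6, from 250 bases before to 50 after the transcript start, were searched on both strands for GAAA, any 2 bases and GAAA again, the core of the response element, whose matches can overlap one another. Matches were found in 3.99% of the 27025 genes with a promoter, in 6.96% of the 1494 called higher in B6 and in 3.06% of the 1276 called higher in NOD. Of 32 interferon response genes with a promoter entry, 16 (50%) held a match, 13 of the 27 higher in B6 and 3 of the 5 not called. All 10 GTPase genes with an entry held one, 6 of them higher in B6 and 4 not called. A match is a description of the letters and not evidence of binding. The windows below are shown because their genes differed between the strains and hold the element upstream of the start, from base -36 (Trim30a) to base -156 (Ifit3). Each runs 5′ to 3′ along the strand of its gene, with a single match in capitals. Further matches that overlap it in Isg15 and Gbp3 are left in lower case, and not every match of these genes is shown. They lie at chr5:120777705-120777754 (Oas3, minus strand), chr4:156200867-156200916 (Isg15, minus), chr7:104465200-104465249 (Trim30a, minus), chr3:142559979-142560028 (Gbp3, plus) and chr19:34583353-34583402 (Ifit3, plus). In Oas3 and Isg15 the match reads along the gene, and in the other genes it lies on the opposite strand.
Oas3: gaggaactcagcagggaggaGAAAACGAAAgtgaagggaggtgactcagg
Isg15: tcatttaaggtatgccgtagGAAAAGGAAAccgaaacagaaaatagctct
Trim30a: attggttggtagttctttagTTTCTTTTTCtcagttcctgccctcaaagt
Gbp3: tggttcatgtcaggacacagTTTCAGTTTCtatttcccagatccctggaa
Ifit3: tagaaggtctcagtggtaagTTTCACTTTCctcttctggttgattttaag

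Oas1a and Oas3 make the 2-5A signal that switches on RNase L against viral RNA. Oas1a ran from 3.51 to 9.24 CPM in B6 (median 7.46) and from 0.868 to 2.75 in NOD (median 1.43), which is 2.03 ± 0.28 on the log2 scale (± standard error, adjusted p = 5.43e-08). Oas3 ran from 1.62 to 4.91 CPM in B6 (median 3.85) and from 0.183 to 1.27 in NOD (median 0.354), or 2.58 ± 0.39 (adjusted p = 6.75e-07). For neither gene did the strains overlap. Usp18, which trims the ubiquitin-like Isg15 from proteins and damps receptor signalling, had 6.39 to 11.6 CPM in B6 and 1.33 to 3.56 in NOD, a difference of 2.00 ± 0.34. Irf7, the factor that amplifies the type I response, had 27.5 to 40.1 CPM in B6 (median 36.0) and 7.18 to 22.4 in NOD (median 11.2), and differed by 1.41 ± 0.28. Again every B6 library stood above every NOD library.

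Ifit3, which binds viral RNA complexes, ran from 13.4 to 27.2 CPM in B6 and from 3.03 to 13 in NOD (1.44 ± 0.33, adjusted p = 0.000581). Its ranges did not overlap. Isg15 differed by 1.17 ± 0.33 and Trim30a, a restraint on toll-like receptor signalling, by 1.17 ± 0.22. The members not called were Herc6, Stat2, Bst2, Parp9, Eif2ak2, Ly6e, Ifi35 and Mx2, with log2 fold changes between 0.42 (Herc6) and -0.12 (Mx2). Stat2 had 0.25.

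Among the GTPases, Gvin1, a very large interferon-inducible GTPase, had the largest difference, with 20.9 to 89.1 CPM in B6 and 1.29 to 3.27 in NOD (4.42 ± 0.48, adjusted p = 1.70e-10). Its means in the other strains ran from 0 (AJ) to 5.48 CPM (PWK), so that B6 was the strain that stood out. The guanylate-binding protein Gbp3 had 6.80 to 24.5 CPM in B6 (median 17.2) and 1.49 to 6.77 in NOD (median 3.77), or 1.91 ± 0.38. Gbp5, an activator of inflammasomes, differed by 1.43 ± 0.33 and the immunity-related GTPase Irgm2 by 1.20 ± 0.29. Iigp1, of the same family as Irgm2, was not called, with 186 to 415 CPM in B6 and 262 to 393 in NOD (-0.17 ± 0.27).

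Oas1a and Irf7 had a step between replicate numbers in both strains. Oas1a had 7.46 to 9.24 CPM in B6 1 to 4 and 3.51 to 6.18 in B6 6 to 8, and it had 1.77 to 2.75 in NOD 1 to 4 and 0.868 to 1.09 in NOD 5 to 8. Irf7 had 36.0 to 40.1 and 27.5 to 33.8 CPM in these B6 libraries, and 13 to 22.4 and 7.18 to 9.46 in these NOD libraries. B6 was the higher strain within the low and within the high numbers for both genes.

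In the p200 family of DNA sensors on chromosome 1, members stood in opposite directions. Ifi204 had 8.78 to 16.9 CPM in B6 and 0.640 to 2.62 in NOD (3.24 ± 0.28, adjusted p = 3.03e-14). Ifi202b, a lupus candidate gene, had at most 0.0584 CPM in B6 and 1.53 to 3.50 in NOD (-6.45 ± 0.42). Pydc4, a pyrin-domain gene of the same cluster, had 755 reads over all B6 libraries and 2 over all NOD libraries.

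MHC class I genes, which show peptides from inside the cell to T cells, were called in both directions. Of 28 tested, 16 were higher in B6 and 4 higher in NOD (71.4%), with a median of 0.61. H2-K1, the classical K chain (chr17:33996017-34000333), had 948 to 1220 CPM in B6 (median 1030) and 98.0 to 169 in NOD (median 121), a log2 fold change of 3.03 ± 0.14 (adjusted p = 6.95e-25). H2-D1, the other classical chain, differed by 0.49 ± 0.13, with 423 to 571 CPM against 262 to 433. The strains did not overlap for H2-K1 but did for H2-D1. Within the numbers 1 to 4, H2-D1 had 455 to 477 CPM in B6 and 363 to 433 in NOD. Within 5 to 8 it had 423 to 571 and 262 to 289, again without overlap. Strain-129 had the highest H2-K1 mean of the other strains, 735 CPM, and PWK the lowest, 122 CPM.

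Among the non-classical chains, H2-T23, the ligand of inhibitory and activating natural killer receptors, had 144 to 230 CPM in B6 and 31.9 to 50.2 in NOD (2.16 ± 0.14), and H2-Q7 had 58.7 to 81.6 and 14.3 to 27.8 (1.98 ± 0.26). Tap1, a subunit of the peptide pump that loads class I, had 25.2 to 42.3 CPM in B6 and 9.94 to 19.8 in NOD (1.19 ± 0.19). Its partner Tap2 differed the other way, with 19.0 to 33.2 CPM in B6 and 26.6 to 43.5 in NOD (-0.39 ± 0.14, adjusted p = 0.0300). That call was lost without B6 4 (adjusted p = 0.0526), 7 (0.0772) or 8 (0.0823) and without NOD 3 (0.0559) or 4 (0.0829). It was also lost with NOD 1 and 2 left out (0.0556) and with B6 1 to 4 as the only B6 libraries (-0.22, adjusted p = 0.348). B2m, the light chain shared by all class I molecules, was not called, with 907 to 1070 CPM in B6 and 876 to 1070 in NOD. H2 chains are highly polymorphic, and how reads of NOD alleles were assigned against the reference was not tested.

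MHC class II genes, which show peptides to helper T cells and hold the main NOD risk locus, were higher in B6 for 10 of 11 tested and higher in NOD for 0 (90.9%), with a median of 1.5 (0 higher in NOD by DESeq2, by limma and at an unadjusted p under 0.05). H2-Ab1, the class II beta chain whose NOD allele is the best known diabetes risk allele of the strain, had 20.8 to 54.0 CPM in B6 (median 36.6) and 5.20 to 22.9 in NOD (median 9.35), or 1.69 ± 0.35 (adjusted p = 0.000170). Its partner H2-Aa differed by 1.30 ± 0.36 and H2-Eb1 by 1.39 ± 0.38. Cd74, the invariant chain that escorts class II, had 58.9 to 139 CPM against 23.2 to 78.9 (1.32 ± 0.33). Ciita, the master activator of class II genes, had 1.72 to 5.08 CPM against 0.659 to 2.45 (1.45 ± 0.43). All these ranges overlapped between the strains. The pseudogene H2-Ea-ps was the member not called (-0.94).

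Markers of Kupffer cells moved with these groups. Of 22 tested, 16 were higher in B6 and 0 higher in NOD (72.7%), with a median of 1.12, and for these and the lipid-associated macrophage markers the NOD count was 0 by DESeq2, by limma and at an unadjusted p under 0.05. Their summed level was 790 to 1650 CPM in B6 (median 1260) and 561 to 993 in NOD (median 702), and none was at 0 throughout a strain. Csf1r, the receptor that macrophages need to survive, had 57.6 to 137 CPM in B6 (median 106) and 16.8 to 40.4 in NOD (median 26.8), or 1.84 ± 0.24 (adjusted p = 2.96e-08), without overlap. Clec4f, the lectin that defines Kupffer cells in mice, had 83.4 to 171 CPM against 40.5 to 103 (0.97 ± 0.25). Clec1b differed by 1.15 ± 0.13, Adgre1 (the F4/80 antigen) by 1.28 ± 0.30 and Vsig4, a complement receptor, by 1.17 ± 0.26. Marco, Cd163, Mpeg1, Spic, Nr1h3 and Slc40a1 were not called, with log2 fold changes of 1.09, 0.17, 0.15, 0.13, -0.02 and -0.18.

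The part of these markers in the interferon and MHC class II results was not tested. Csf1r was higher in the libraries numbered 1 to 4, at 106 to 137 CPM in B6 1 to 4 and 57.6 to 84.2 in B6 6 to 8, and at 32.2 to 40.4 in NOD 1 to 4 and 16.8 to 21.4 in NOD 5 to 8, whereas the ranges of Mpeg1 overlapped between these libraries in both strains (109 to 159 and 82.6 to 160 CPM in B6, 110 to 148 and 99.9 to 116 in NOD). Of 15 markers of lipid-associated macrophages, the state found in fatty liver, 8 were higher in B6 and 0 in NOD (53.3%), with a median of 1.21. Among them, the lipid receptor Trem2 had 0.263 to 1.62 CPM against 0.0304 to 0.312 (2.57 ± 0.51), the integrin Itgax 1.09 to 6.73 against 0.243 to 1.05 (2.32 ± 0.42), and the fungal receptor Clec7a 4 to 16 against 1.70 to 4.65 (1.78 ± 0.30). Spp1, Cd9 and Lpl were not called, at 0.23, 0.00 and 0.08.

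Of 36 lymphocyte markers, 9 were higher in B6 and 0 higher in NOD (25%, near the 24.3% of all genes), with a median of 1.06. At an unadjusted p under 0.05, 2 were higher in NOD, and by DESeq2 and limma 0 were. Ighd, the heavy chain of IgD on mature B cells, was among the 9 higher in B6. Ighd had 0.656 to 1.53 CPM in B6 and 0.0693 to 0.391 in NOD (2.29 ± 0.45). Ighm, the heavy chain of IgM, was not called, with 17.5 to 67.4 CPM in NOD and 8.77 to 34.2 in B6 (-1.16 ± 0.53, adjusted p = 0.104), and with the replicate number as a block it was called (adjusted p = 0.0419). The T-cell receptor subunit Cd3e was not called either (0.50 ± 0.56). The B6 count was 14 without B6 7, 18 by limma and 2 among the members that reached 1 CPM in at least 7 libraries.

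Stellate cell and matrix genes were higher in B6 for 13 of 27 and higher in NOD for 1 (51.9%), with a median of 0.44. Col6a3, a chain of collagen VI, had 18.0 to 29.3 CPM in B6 (median 24.6) and 8.60 to 14.9 in NOD (median 10.8), or 1.08 ± 0.17 (adjusted p = 8.65e-07), without overlap. Pdgfrb, the growth factor receptor of stellate cells and pericytes, had 11.1 to 19.4 CPM against 8.32 to 10.8 (0.64 ± 0.13). Col1a1, a chain of the main scar collagen, had 10.3 to 31.7 against 4.68 to 14.7 (1.22 ± 0.35), a call lost with B6 1 to 4 as the only B6 libraries (adjusted p = 0.0531). Acta2, the actin of activated stellate cells, was not called (-0.35 ± 0.24). The 1 member higher in NOD was Sparc (-0.33 ± 0.12, adjusted p = 0.0465), and that call was lost without B6 1, 3, 4, 7 or 8 or NOD 1, 3, 4, 5, 7 or 8 (adjusted p = 0.0545 to 0.111).

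Few hepatocyte identity genes were called. Of 23 tested, 1 was higher in B6 (Cebpa, 0.59 ± 0.21) and 1 higher in NOD (Apoh, -0.38 ± 0.09), which is 8.7% beside 24.3% of all genes. The call of Cebpa was lost without B6 7 (adjusted p = 0.0875), NOD 3 (0.0540), NOD 4 (0.0534) or NOD 8 (0.0557) and with the replicate number as a block (0.0651). Albumin (Alb) had 49500 to 69900 CPM in B6 and 43700 to 67100 in NOD and was not called. The summed level of the list was 75100 to 105000 CPM in B6 and 79400 to 109000 in NOD. Endothelial markers were called for 4 and 1 of 21 (23.8%, near the share of all genes), at a median of 0.09. The member higher in NOD, Lyve1 (-0.62), was not called with the replicate number as a block (adjusted p = 0.0628). Its call was also lost without B6 1, 3, 6 or 7 or NOD 1, 3, 4 or 8 (adjusted p = 0.0524 to 0.0914). The same held with NOD 1 and 2 left out (0.0618) and with B6 1 to 4 as the only B6 libraries (0.131).

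**Figure D2:**
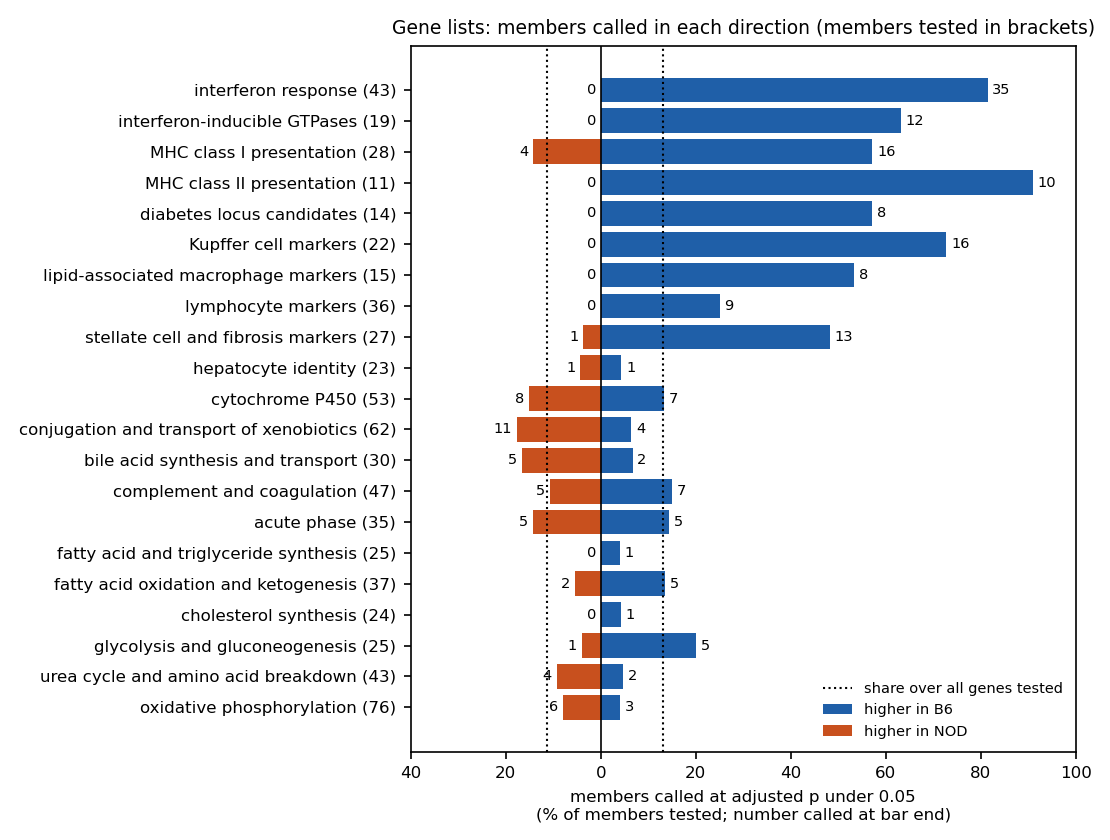
Bars give the percentage of each list's tested members called higher in B6 (blue, to the right) or in NOD (orange, to the left), with the number called at the bar end and the number tested in brackets. Dotted lines mark the shares over all genes, 13% and 11.4%. The interferon, GTPase, MHC and macrophage bars reach far past the line for B6, and the hepatocyte and lipid synthesis bars stay inside it.

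**Figure D3:**
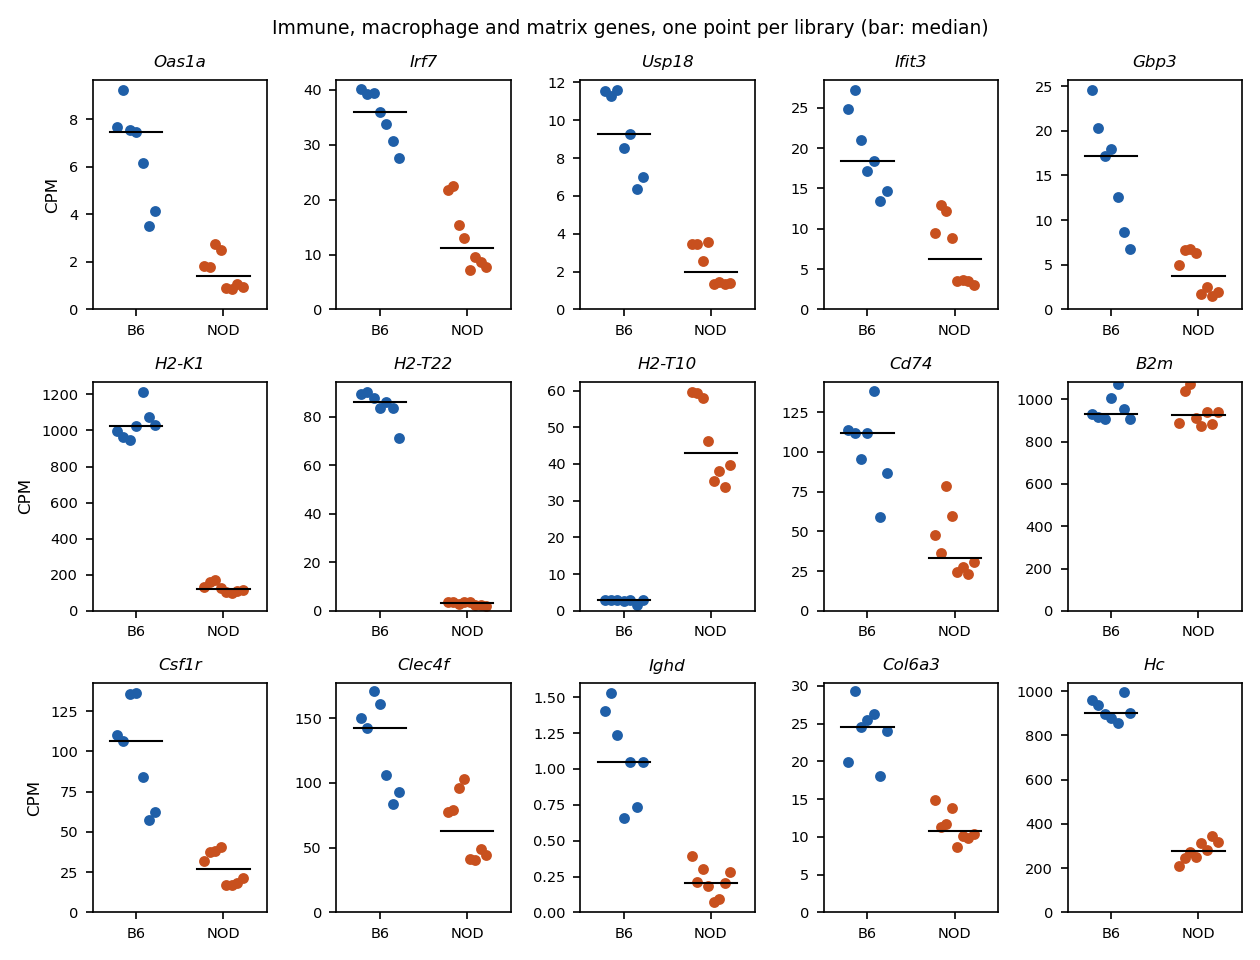
Each point is a library, in the order of its number, with its level in CPM on a linear axis from 0, and the bar is the strain's median. Oas1a, Irf7, H2-K1, Csf1r and Col6a3 have no overlap between the strains, Cd74 overlaps in part, and B2m covers 907 to 1070 CPM in B6 and 876 to 1070 in NOD.

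Candidate genes of NOD diabetes loci were higher in B6 for 8 of 14 tested and higher in NOD for 0 (57.1%), with a median of 1.26, and the NOD count was 0 by DESeq2, by limma and at an unadjusted p under 0.05. The list contains H2-Aa, H2-Ab1 and H2-Eb1. Ptpn22, a phosphatase that restrains T-cell receptor signalling, had 0.632 to 2.69 CPM in B6 and 0.139 to 1.02 in NOD (1.71 ± 0.40, adjusted p = 0.000846). Fcgr1, the high-affinity IgG receptor of macrophages, had 2.28 to 6.10 CPM against 1.09 to 2.23 (1.55 ± 0.27), without overlap. Nfkbid, a nuclear regulator of NF-kB, had 0.316 to 0.976 CPM against 0.0457 to 0.358 (2.06 ± 0.38), and Slc11a1, a metal transporter of phagosomes, 7.06 to 17.5 against 3.29 to 9.69 (1.22 ± 0.23). Several of these genes are expressed by macrophages, whose markers were higher in B6 as well.

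Hc, which encodes complement component C5 (chr2:34983331-35061438), is a known carrier of a null allele in several inbred strains. It had 857 to 997 CPM in B6 (median 899) and 210 to 346 in NOD (median 276), a log2 fold change of 1.72 ± 0.17 (adjusted p = 2.50e-12). The ranges were far apart, and the other strains ran from 281 CPM (AJ) to 1600 (WSB). Of 47 complement and coagulation genes, 7 were higher in B6 and 5 in NOD (25.5%, near the share of all genes), and the NOD count was 2 without B6 6 or 8 and 3 without B6 3 or 4 or any one of NOD 5 to 8. C4b, the complement C4 gene, was not called (1920 to 2200 CPM against 1490 to 2310). C4a, its sex-limited copy, had 7.65 to 14.1 CPM in NOD 1 to 4 and 758 to 820 in NOD 5 to 8, and 4.1 to 7.4 in B6 1 to 4 and 18.3 to 36.2 in B6 6 to 8. Its log2 fold change was -4.88 ± 1.19, and -3.26 with the replicate number as a block.

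The list of genes known to differ among mouse strains, whose members were picked for that, had 19 higher in B6 and 8 higher in NOD of 39 tested (69.2%). Nnt, the mitochondrial transhydrogenase that makes NADPH and that carries a deletion in a common B6 substrain, had 52.8 to 65.2 CPM in B6 (median 59.5) and 110 to 167 in NOD (median 141). The difference was -1.23 ± 0.19 (adjusted p = 7.22e-07), and B6 lay below the lowest mean of the other strains, 68.3 CPM in Cast. Pctp, a carrier of phosphatidylcholine, had 87.8 to 148 CPM in B6 and 2.99 to 23.8 in NOD (3.38 ± 0.44). Alad, a heme synthesis enzyme with known copy number differences, had 64.9 to 84.2 CPM against 116 to 157 (-0.89 ± 0.16). Wdfy1, an endosomal adaptor, had 10.1 to 12.6 against 21.9 to 26.3 (-1.01 ± 0.07). None of these ranges overlapped.

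The largest differences among protein-coding genes at 5 CPM or more were often nearly on-off. B4galnt1, which makes complex gangliosides (chr10:127165156-127172340), had 57.9 to 77.4 CPM in B6 (median 67.1) and 0.457 to 3.07 in NOD (median 1.31), or 5.66 ± 0.23 (adjusted p = 1.41e-27). The other strains stood at 64.4 to 88.3 CPM, so NOD was the low strain. Tlr12, a receptor for the profilin of parasites, had 6.73 to 31.6 CPM in B6 and 0.0347 to 0.761 in NOD (5.15 ± 0.40, and 4.38 with B6 1 to 4 as the only B6 libraries). Pttg1, the securin that guards sister chromatids, had 12.6 to 17.1 CPM against 0.605 to 1.82 (3.67 ± 0.22), and no other strain's mean passed 2.64.

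In the other direction, Cyp46a1, a cholesterol 24-hydroxylase known from neurons, had 1.58 to 6.07 CPM in B6 and 35.7 to 147 in NOD (-4.48 ± 0.59, adjusted p = 2.20e-08). Its NOD levels were 112 to 147 CPM in NOD 1 to 4 and 35.7 to 54.7 in NOD 5 to 8. Corin, the protease that activates natriuretic peptides, had 0.568 to 3.65 CPM against 17.5 to 31.7 (-4.11 ± 0.50). Atp5g2, a gene of the ATP synthase c ring, had 2.08 to 4.99 against 49.8 to 59.1 (-4.11 ± 0.22). Ankrd55 had 0.150 to 0.386 CPM in B6, 20.7 to 35.2 in NOD 1 to 4 and 1.46 to 4.56 in NOD 5 to 8 (-5.82 ± 0.55, and -5.07 with NOD 1 and 2 left out). For none of these genes did B6 and NOD overlap. The 3 Atp5g genes encode the same mature subunit, and their sum was 329 ± 42.0 CPM in B6 and 376 ± 27.6 in NOD (SD, n = 7 and 8, exact permutation test, two-sided adjusted p = 0.0377). This sum was chosen after its values were seen. It had a step by number in B6, with 268 to 348 CPM in B6 1 to 4 and 362 to 371 in B6 6 to 8. NOD 1 to 4 had 335 to 395 CPM and NOD 5 to 8 had 381 to 411. The test took no account of that step.

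Some genes were near absence in one strain. Srd5a2, a steroid 5-alpha reductase, had 112 reads over the B6 libraries and 0 over the NOD libraries, which puts it at least 41.3-fold higher in B6 when 3 reads per strain are taken as the floor. On the same floor the CD200 receptor family gene Cd200r4 (65 reads against 0) was at least 23.9-fold higher in B6. Tmed6, with 99 reads in NOD and 0 in B6, was at least 29.9-fold higher in NOD. These levels were all at or below about 1 CPM.

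Several of the largest differences concerned genes with a close relative. Hba-a1, an alpha globin, had at most 1.35 CPM in B6 and 74.1 to 147 in NOD (-7.68 ± 0.46), while its neighbour Hba-a2 was not called (94.9 to 191 against 97.9 to 214). Their coding sequences differ at 1 of 426 bases. Hist2h2aa2 had at most 0.300 CPM in B6 and 43.2 to 60.8 in NOD (-8.46 ± 0.58), and Hist2h2aa1, whose 390 coding bases are the same, had 21.3 to 38.5 against 2.10 to 6.13 (2.62 ± 0.17). H2-T10 had 1.69 to 3.07 CPM in B6 and 33.6 to 59.6 in NOD (-4.09 ± 0.20), and H2-T22 had 71.1 to 90.0 against 2.10 to 3.84 (4.77 ± 0.16), at 96.31% coding identity. Ceacam2 had at most 0.927 CPM in B6 and 42.6 to 55.4 in NOD (-7.05 ± 0.36), and Ceacam1, the receptor that promotes insulin clearance, had 168 to 235 against 81.0 to 98.6 (1.20 ± 0.10), at 90.45%.

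The authors' counting could have split reads between such genes, so single values are uncertain and sums are given beside them. The summed alpha globins were 139 ± 36.8 CPM in B6 and 267 ± 62.9 in NOD (SD, n = 7 and 8), a mean log2 difference of -0.95 (exact permutation test, two-sided adjusted p = 0.00186). The summed beta globins differed by -0.71 (exact permutation adjusted p = 0.00414). The Hist2h2aa sum was 26.8 ± 5.79 against 53.7 ± 7.65 CPM (-1.01), the H2-T10 and H2-T22 sum 87.1 ± 6.51 against 49.4 ± 11.6 (0.85), and the Ceacam sum 203 ± 24.6 against 137 ± 9.49 (0.57). For these 3 sums the exact permutation adjusted p was 0.00104, and the unadjusted p, 0.000311, is the smallest that 6435 splits allow. Sums of 10 families, chosen after their values were seen, were tested, and p-values were adjusted over the 10.

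**Figure D4:**
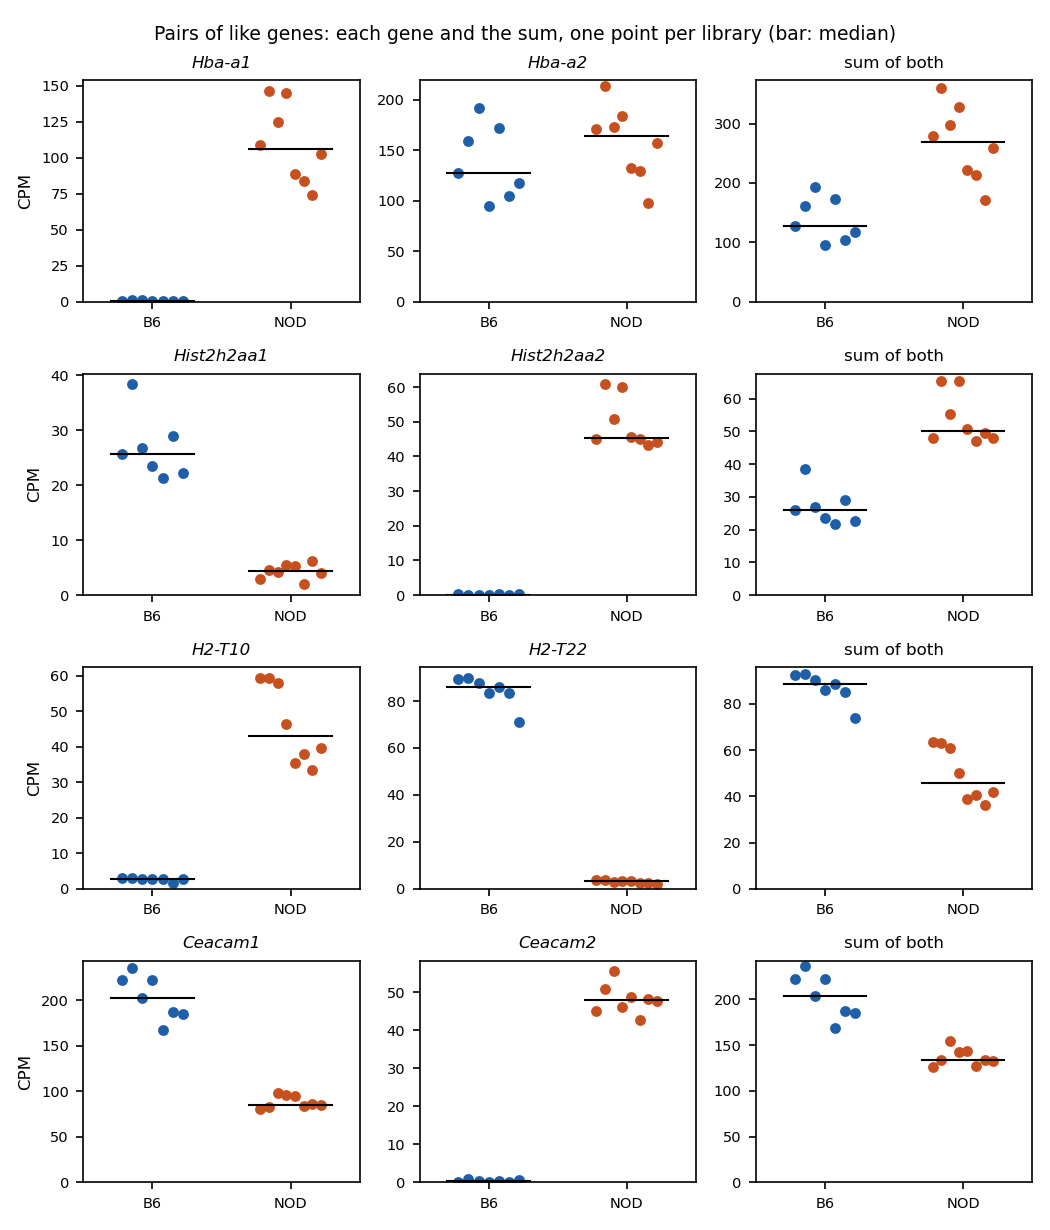
For 4 pairs of like genes, each point is a library with its level in CPM on a linear axis, and the bar is the strain's median. The first and middle columns show each gene and the right column the sum of both. The strains do not overlap in 3 of the sums, while the alpha globin sum of B6 reaches 192 CPM and that of NOD starts at 172.

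Major urinary proteins, pheromone carriers that the liver secretes in large amounts, held the largest positive log2 fold changes among the protein-coding genes at 5 CPM or more. Of 19 tested, 6 were higher in B6 and 3 in NOD (47.4%, beside 24.3% of all genes). Mup18 had 250 to 819 CPM in B6 and 0 to 2.39 in NOD (9.23 ± 1.35, adjusted p = 3.15e-07), and Mup15 had 11.7 to 875 against 0 to 1.98 (8.70 ± 1.15, and 8 without B6 7). Mup1 had 4.57 to 169 CPM in NOD 1 to 4 and 5440 to 6180 in NOD 5 to 8, beside 1.23 to 5.36 in B6 1 to 4 and 24.2 to 218 in B6 6 to 8 (-5.99 ± 1.70). The family's sum was 1460 to 23300 CPM in B6 and 220 to 27500 in NOD, and it was not called (exact permutation test, two-sided adjusted p = 0.797). That test pooled ranges that leaned opposite ways by number. The sum was 1457 to 3513 CPM in B6 1 to 4 and 220 to 1984 in NOD 1 to 4. It was 8840 to 23350 in B6 6 to 8 and 22830 to 27540 in NOD 5 to 8. Both pairs of ranges overlapped, and these orders were not tested. Mup18 and Mup1 share 99.44% of aligned coding bases. With B6 1 to 4 as the only B6 libraries, 2 members were higher in B6 and 5 in NOD, Mup12 had a log2 fold change of -0.15 in place of 7.08, and the calls of Mup11 (1.02, adjusted p = 0.454, in place of 3.86) and Mup17 (2.00, adjusted p = 0.219, in place of 3.67) were lost. Without B6 7 the values were 5.26 for Mup12, 2.99 for Mup11, 2.78 for Mup17 and -7.36 for Mup1.

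The Serpina1 genes encode alpha-1-antitrypsins. Serpina1e had 23.4 to 152 CPM in B6 1 to 4, 267 to 1400 in B6 6 to 8 and 1.17 to 7.62 in NOD. Its difference was 6.71 ± 1.10, with 5.80 without B6 7 and 4.16 with B6 1 to 4 as the only B6 libraries. Serpina1d had 1890 to 3300 CPM in B6, 120 to 224 in NOD 1 to 4 and 988 to 1100 in NOD 5 to 8 (2.14 ± 0.33). Serpina1b was called higher in NOD, with 3950 to 5510 CPM in B6 and 3570 to 8180 in NOD (-0.41 ± 0.15). The sum of 5 Serpina1 genes was 14600 ± 2530 CPM in B6 and 13600 ± 5520 in NOD (SD, n = 7 and 8, exact permutation adjusted p = 0.501). That sum stood in opposite orders by number: B6 1 to 4 (12630 to 16690 CPM) lay above NOD 1 to 4 (6491 to 10820), while NOD 5 to 8 (18290 to 19330) lay above B6 6 and 8 (11650 and 14630), with B6 7 at 19100. These orders were not tested.

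Drug-metabolising genes differed gene by gene. Of 53 cytochrome P450 genes, 7 were higher in B6 and 8 in NOD (28.3%, beside 24.3% of all genes), with a median of 0.00. The counts were 7 and 14 in a fit of the B6 and NOD libraries alone and 10 and 12 with Xist as a covariate. Cyp2c44, an epoxygenase of arachidonic acid, had 92.9 to 298 CPM in B6 (median 159) and 13.4 to 21.1 in NOD (median 16.8), or 3.44 ± 0.23 (adjusted p = 6.79e-18). Cyp2a12, a bile acid and steroid hydroxylase, had 343 to 504 CPM in B6 and 34.6 to 102 in NOD (2.77 ± 0.21), with the other strains at 365 to 613. Cyp3a13 had 91.6 to 197 against 27.0 to 52.6 (2.01 ± 0.23). In these 3 genes the strains did not overlap. Cyp4f13 was higher in NOD, 57.2 to 81.1 CPM against 31.7 to 41.5 (-0.90 ± 0.11).

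Of 62 conjugation and transport genes, 4 were higher in B6 and 11 in NOD (24.2%, near the 24.3% of all genes). Ugt1a9, a glucuronosyltransferase, had 30.1 to 72.4 CPM in B6 and 199 to 364 in NOD (-2.41 ± 0.29, adjusted p = 3.05e-09), without overlap. Part of the list rested on NOD 1 and 2. Cyp3a11, the main inducible drug oxidase, had 14400 and 15000 CPM there, 1930 to 3580 in NOD 3 to 8 and 705 to 2080 in B6. Cyp2c55 had 60 and 80.1 CPM in NOD 1 and 2, 0.589 to 1.51 in NOD 3 to 8 and 0.613 to 2.99 in B6. The glutathione transferase Gstm3 had 697 and 805 CPM, 33.6 to 59.7 and 14.2 to 44.0, and the carboxylesterase Ces2a 923 and 1020, 137 to 219 and 79.5 to 161.

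With NOD 1 and 2 left out, none of these was called: Cyp3a11 had a log2 fold change of -1.03 (adjusted p = 0.230, in place of -2.02), Gstm3 -1.18 (adjusted p = 0.0544, in place of -3.32) and Ces2a -0.59 (adjusted p = 0.105, in place of -1.66). Cyp2c55 turned to 0.66 (adjusted p = 0.349) from -3.61. The conjugation list then had 7 higher in B6 and 7 in NOD, and with only B6 3 left out it had 2 and 8. Without NOD 1 alone the values of Gstm3 and Cyp2c55 were -2.67 and -2.65. Cyp2c39 had 853 to 1170 CPM in NOD 1 to 4, 17.3 to 40.4 in NOD 5 to 8 and 3.27 to 12.4 in B6 (-5.88 ± 1.25, and -5.18 with NOD 1 and 2 left out).

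**Figure D5:**
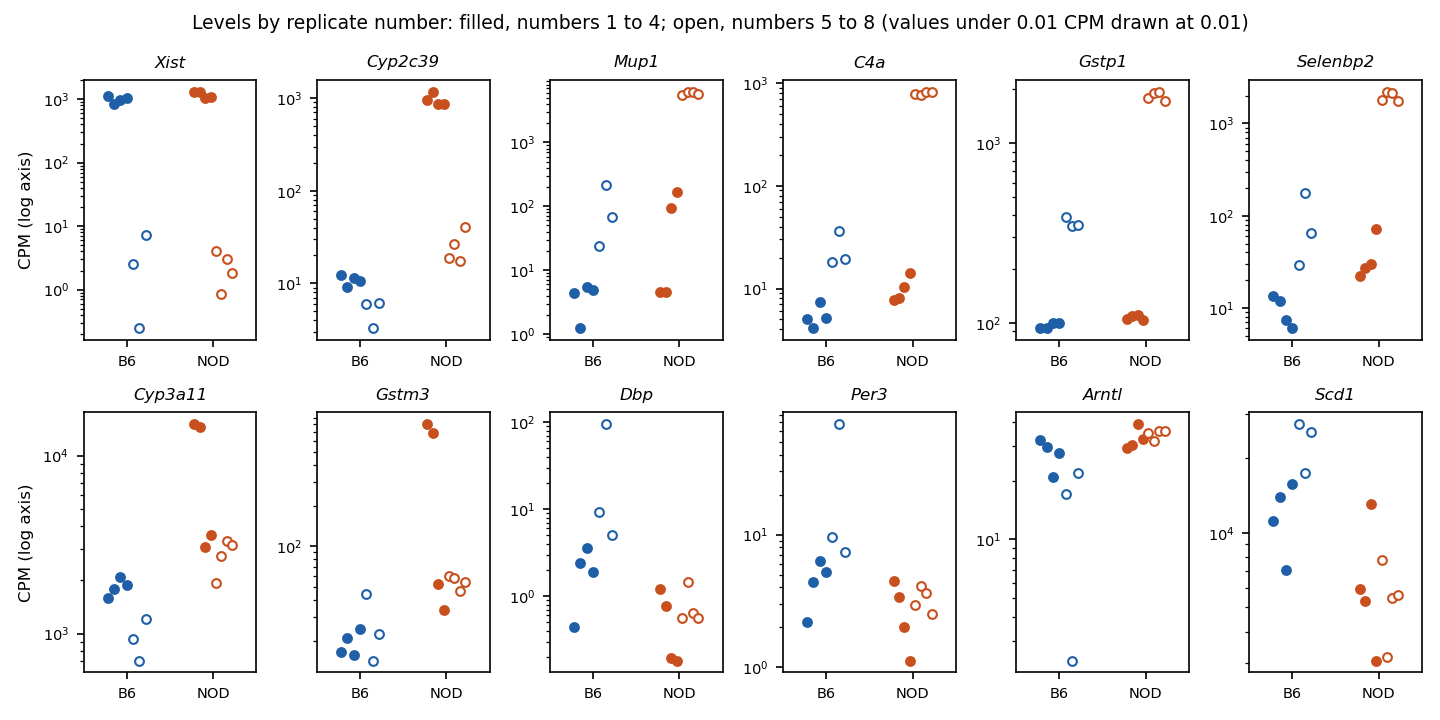
Levels in CPM on log axes for 12 genes, with libraries numbered 1 to 4 as filled points and 5 to 8 as open points. Xist and Cyp2c39 are high in the filled NOD points, Mup1, C4a, Gstp1 and Selenbp2 in the open ones, Cyp3a11 and Gstm3 in NOD 1 and 2, and Dbp, Per3 and Arntl set B6 7 apart.

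Fatty acid and triglyceride synthesis had 1 of 25 genes higher in B6 and 0 higher in NOD by edgeR (4%), and cholesterol synthesis 1 of 24 and 0 (4.17%). The fatty acid list had 4 higher in B6 in a fit of the B6 and NOD libraries alone, 2 without NOD 3 or with Xist as a covariate, and 0 with B6 1 to 4 as the only B6 libraries. For both lists and for the lipid droplet genes the NOD count was 0 by DESeq2, by limma and at an unadjusted p under 0.05. The cholesterol gene, Sc5d, was lost in most fits that left out 1 library, and 5 genes of its list were higher in B6 with NOD 1 and 2 left out. That gene of the first list was Scd1, the stearoyl-CoA desaturase, with 7090 to 27400 CPM in B6 and 3060 to 13000 in NOD (1.46 ± 0.46, adjusted p = 0.0143), which was not called with B6 1 to 4 as the only B6 libraries (0.97, adjusted p = 0.194). Fasn, which builds palmitate, was not called (554 to 2350 against 428 to 1030). Of 20 lipid droplet genes and targets of Pparg, 8 were higher in B6 and 0 in NOD (40%), but 4 without B6 6 and 2 with B6 1 to 4 as the only B6 libraries. Pparg, the adipogenic receptor that also drives fat storage in liver, had 5.11 to 21.4 CPM against 0.767 to 7.57 (2.05 ± 0.40, adjusted p = 6.80e-05). With NOD 1 and 2 left out it had 2.77, and with B6 1 to 4 alone 1.38. Cidec, which fuses lipid droplets, had 0.350 to 1.66 CPM in B6 1 to 4 and 11.7 to 40.9 in B6 6 to 8, beside 1.41 to 4.83 in NOD. Its call (2.23 ± 0.71) was lost without B6 6 (1.39, adjusted p = 0.149), and with B6 1 to 4 alone its value was -1.49.

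Fatty acid oxidation genes, targets of Ppara in liver, were called for 5 and 2 of 37 (18.9%, under the share of all genes). The B6 count was 3 without NOD 5 or 6, and the NOD count was 1 without B6 2 or NOD 7. The called members were Cpt1a, Ucp2, Vnn1, Cyp4a14 and Cyp4a31, higher in B6, and Angptl4 and Cyp4a32, higher in NOD. Vnn1, a pantetheinase, had 26.2 to 147 CPM in B6 and 2.62 to 23.5 in NOD (3.05 ± 0.64, adjusted p = 0.000234). Cyp4a14, a fatty acid omega-hydroxylase, had 396 to 1470 CPM against 4.48 to 283 (3.21 ± 1.12, adjusted p = 0.0286). Neither gene overlapped between the strains. The call of Cyp4a14 was lost without B6 3 (adjusted p = 0.0587) and without any one of NOD 5 to 8 (adjusted p = 0.0524 to 0.0533), and without NOD 4 its value was 3.96.

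Other pathways of the hepatocyte held single large differences. Ahcy, which clears S-adenosylhomocysteine after methylation reactions, had 1080 to 2260 CPM in B6 (median 1460) and 389 to 577 in NOD (median 456), or 1.74 ± 0.20 (adjusted p = 3.88e-10). Bckdhb, a subunit of the branched-chain keto acid dehydrogenase, had 48.6 to 61.2 CPM against 84.7 to 107 (-0.84 ± 0.08). Urea cycle and amino acid genes as a list had 2 and 4 of 43 called (14%), and 1 and 2 without B6 3. In bile acid synthesis, Cyp2c70, which makes muricholic acids, had 126 to 585 CPM in B6 and 620 to 830 in NOD (-1.04 ± 0.27), a call lost with B6 1 to 4 alone (adjusted p = 0.132). Fgfr4, the receptor for the ileal hormone Fgf15, had 30.1 to 45.4 CPM against 49.9 to 56.9 (-0.61 ± 0.13), and Cyp7a1, the rate-limiting enzyme, was not called (0.93 ± 0.50). The oxidative phosphorylation list had 3 and 6 of 76 called (11.8%), with Atp5g2 as the one past 2-fold, and with B6 1 to 4 alone 2 and 11.

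Several clock genes rested on a single library. Of 20 tested, 6 were higher in B6 and 2 in NOD (40%, beside 24.3% of all genes). But without B6 7 the counts were 1 and 1, and without NOD 8 they were 4 and 1. In B6 7 Dbp, an output gene of the clock, was at 95.1 CPM and at 0.438 to 9.36 in the other B6 libraries, and Per3 was at 68.0 and 2.19 to 9.56. Arntl, which drives the clock in the opposite phase, was at 2.39 CPM in B6 7, at 17.0 to 32.4 in the other B6 libraries and at 29.6 to 39.1 in NOD. Without B6 7 the log2 fold change of Dbp was 2.46 (adjusted p = 0.121) in place of 4.61, and that of Per3 0.95 (adjusted p = 0.348) in place of 2.28. With the replicate number as a block these calls were also lost (adjusted p = 0.0631 and 0.118), and the list had 2 and 2. Nr1d1, a repressor of the clock, was still called without B6 7 (1.60 ± 0.58 with it), with 21.0 to 87.6 CPM in B6 and 6.36 to 41.0 in NOD. Its call was lost without B6 2 or 6 or NOD 2, 3, 4 or 8 (adjusted p = 0.0582 to 0.0668). It was also lost with NOD 1 and 2 left out (0.0728) and with B6 1 to 4 as the only B6 libraries (0.119). Cry1, another repressor, had -0.88 without B6 7 (adjusted p = 0.0545) in place of -0.93.

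Along the genome, called genes were spread over all chromosomes, from 6.67% of the mitochondrial and 20.3% of the X-linked genes to 30.6% of those on chromosome 17. In 307 windows of 5 Mb with at least 20 tested genes the share called ran from 3.77 to 63.0%, with a median of 23.1%, and it was at least 40% in 23 windows. The highest share was on chromosome 2 from 175 to 180 Mb, with 29 of 46 genes called and 25 of them higher in NOD. Next came chromosome 1 from 170 to 175 Mb, which holds the Ifi200 genes, with 48 of 84 called and 37 higher in B6. On chromosome 7, 22 of 39 genes were called from 105 to 110 Mb, the window of Gvin1. Neighbouring genes share reads, haplotypes and gene families, so these shares are given without a test.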

How the data were processed

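Poly(A)-selected RNA of liver from 8 mouse strains was sequenced by the authors. The deposited table holds estimated counts per gene, which the authors made against GRCm38, per the submitters' processing notes, which also name DESeq2. Aligner, counter, strand setting and any strain-specific reference: not given in the sources used here. Of the values, 21% are not whole, so they were rounded, where whole counts had been assumed in the design. A second deposited table holds log2-scale values after the authors' variance-stabilising transformation, and only the limma alternative was fitted on it. 1 column that matches no sample was not used, and the B6 library numbered 5 was not analysed here.

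All 60 libraries were fitted by strain with edgeR 4.0.16 in R 4.3.3 (quasi-likelihood test, TMM, filterByExpr, Benjamini-Hochberg at 0.05, two-sided), which left 16165 of 18754 genes, and the contrast of 7 B6 and 8 NOD libraries was taken. Levels are CPM on TMM-scaled library sizes, and gene positions are from the authors' deposited gene annotation. Gene types and the coding sequences compared are from GENCODE M21 on GRCm38, in which 18684 genes had an entry. On simulated data for 15859 genes with 200 changed, 82% of genes at a log2 change of 1 and 97% at 2 were recovered, and 2.19% of calls were false. The changed genes were drawn only from genes with more reads. The simulation had no step between replicate numbers and no library that stood apart, so these rates describe data without them. Depth limits genes under about 1 CPM. Alternatives were DESeq2 1.42.0, limma 3.58.1, other scalings and filters, the 2 strains alone, Xist as a covariate, subsets of libraries and a replicate block. The block took the replicate number over all 8 strains, where a number does not mark the same Xist class. Xist was at 3.42 and 3.45 CPM in PWK 3 and 4, and at 1292 and 1068 in PWK 6 and 7. The block therefore does not remove the step between numbers seen in B6 and NOD as such. Leaving out NOD 1 and 2 was chosen after seeing the data.

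Libraries with the same number in both strains deviated together (correlations of 0.204 to 0.399), as did libraries with other numbers within 1 to 4 and within 5 to 8. Members and lists were chosen with earlier results of these data known. Named genes were the 12 with the largest called differences in each direction among protein-coding genes at a mean of 5 CPM or more, 5 in each direction with at most 3 reads in the other strain, up to 3 called members of each list in each direction by p, and called diabetes locus and strain-variable genes past 2-fold. Further list members were named after their values were seen. Results on a few genes are not reported here.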

Additional observations from a re-analysis of the deposited data

Results flagged for a closer look

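A library was singled out where its distance from the nearest other library of its strain, over the whole range of the strain, passed Dixon's 95% critical value. Of 268 groups of libraries examined, 23 held such a library. Chance does so in about 1 in 20 groups where values are independent and normally spread. The groups here share the same libraries, and some genes were picked after their values were seen. The 23 of 268 therefore cannot be set against that rate.

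B6 7 accounted for 9 of them. It was the highest B6 library for Mup15 (875 CPM, others at most 321), Mup12 (63.1, at most 15.4), Mup17 (1335, at most 447), Mup1 (218, at most 68.5), Selenbp2 (176, at most 65.0) and Ttll8 (1.40, at most 0.533). It was also the highest for the clock genes Dbp (95.1, at most 9.36) and Per3 (68.0, at most 9.56), and the lowest for H2-T10 (1.69, others at least 2.66).

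Among the other B6 libraries, B6 8 was low for H2-T22 (71.1 CPM, others at least 83.5). B6 6 was high for H2-D1 (571, at most 477) and Gstm3 (44.0, at most 24.3). B6 3 was high for Cyp4a14 (1474, at most 706) and B6 2 for Cyp2b10 (20.9, at most 3.48). B6 2 alone had reads of Matn4 (0.0897, others 0).

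Among NOD libraries, NOD 3 was high for Tgtp2 (7.74 CPM, others at most 4.24), H2-Q7 (27.8, at most 18.4), Ciita (2.45, at most 1.34), Mpeg1 (148, at most 120) and Scd1 (13007, at most 7737). NOD 4 was high for Ren1 (18.6, at most 9.14). NOD 1 was low for Cyp2c70 (620, others at least 753) and high for the muscle actin Acta1 (419, at most 24.9).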

How the results depend on the processing

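The counts of called genes, of those higher in B6 and of those higher in NOD stayed within 1.5 times under all 26 alternatives. The genes behind these counts changed in part. Of the 3936 genes called in the main fit, 3403 were also called with the 2 strains alone. With B6 1 to 4 as the only B6 libraries 2865 were, and 1200 of the 1838 higher in NOD stayed so. Without 1 library each, 3438 to 3878 genes were called. Other settings gave 4191 (DESeq2), 3991 (limma), 4356 (the 2 strains alone), 4372 (Xist as a covariate), 3567 (at least 1 CPM in 7 libraries), 3411 (B6 1 to 4 as the only B6 libraries) and 3919 (NOD 1 and 2 left out).

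With the replicate number as a block, 3944 genes were called, 2098 higher in B6 and 1846 higher in NOD. Beside the calls named in the report, the block also ended those of Gpx4 (adjusted p = 0.0544), Sc5d (0.0607) and Gstp1 (0.0785).

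Of 224 named genes, 156 kept direction and side of the threshold under each of the 26 alternatives that tested them, since stricter filters and smaller fits left some genes out. The genes that turned direction follow, and the cause was not tested. With B6 1 to 4 as the only B6 libraries the log2 fold change was -0.15 for Mup12, -2.56 for Cfd, -0.0894 for Gpx4, -0.00521 for B2m and -1.49 for Cidec. Without 1 library each, B2m ran from -0.0101 (without B6 6) to 0.0461 and Acta1 from -2.42 to 1.28 (without NOD 1). With NOD 1 and 2 left out it was 0.661 for Cyp2c55, 0.325 for Cyp2b10 and 1.10 for Acta1. For Acta1 it was 0.64 by limma. Limma on the authors' variance-stabilised values gave smaller log2 fold changes for low genes.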
